A study of Mus musculus with 2 samples.

Results

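The mRNAs of 10 RNA-binding proteins of stress granules and AU-rich elements were followed through endoplasmic reticulum stress in a mouse fibroblast line. The members, 10 of the 18641 coding genes on the array, were Zfp36, Zfp36l1, Zfp36l2, Elavl1, Khsrp, Tia1, Tial1, G3bp1, G3bp2 and Caprin1, taken by gene name from the non-control spots of both arrays. They were represented by 25 probes among 41174 non-control probes, and each member probe was printed as 1 spot.

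NIH3T3 cells, an established mouse fibroblast line with no added transgene in the labels, were grown to subconfluence on 4 plates in medium with 10% bovine serum. The control cells received no thapsigargin, and the stressed cells received 10 µM thapsigargin, which blocks the pump that fills the endoplasmic reticulum with calcium, for 3 h. By the methods of the study, cells were given cycloheximide shortly before lysis to hold the polysomes in place. Both lysates were spun through sucrose gradients of 10 to 40%, from which RNA was collected as polysome-bound RNA (P, labelled with Cy3) and free plus monosomal RNA (FM, labelled with Cy5). Each condition was 1 two-colour array that carried RNA pooled from 3 experiments, so no difference between conditions could be set against replicate arrays or tested, and no p-values are printed.

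AU-rich elements are stretches of A and U in the 3′ untranslated regions of short-lived mRNAs such as those of cytokines and early-response factors. The Zfp36 proteins and Khsrp bind them and recruit enzymes that shorten the poly(A) tail and degrade the mRNA, whereas Elavl1 binds many of the same elements and protects the transcript. When phosphorylation of eIF2α blocks initiation, stalled mRNAs gather with Tia1, Tial1, G3bp1, G3bp2 and Caprin1 in cytoplasmic stress granules.

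The probes are shown first because the results differ between probes of one gene. The probes of G3bp1 and G3bp2 that are most alike are given because cross-hybridisation between these paralogues would blur their values. Capitals mark the 37 identical positions of the 49 that overlap when the probes are aligned. The first lies at chr11:55312117-55312967 on the plus strand of mm9, where its 60 bases span 851 genomic bases, and the second at chr5:92484414-92484473 on the minus strand.
G3bp1 A_52_P486702: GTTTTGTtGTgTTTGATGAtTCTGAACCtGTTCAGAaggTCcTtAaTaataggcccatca
G3bp2 A_52_P636830: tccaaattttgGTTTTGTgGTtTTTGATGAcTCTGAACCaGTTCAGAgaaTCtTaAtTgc
The longest run of bases shared without a mismatch was 8. No other pair of probes from different members had more than 27 identical positions.

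The furthest upstream probes of Elavl1 and Tial1 are shown because, without scaling, these probes were lower under stress while the furthest downstream probes of the same genes were higher. The Elavl1 probe lies at chr8:4289613-4289672 on the minus strand of mm9. The Tial1 probe spans 394 genomic bases at chr7:135587455-135587848 on the minus strand.
Elavl1 A_51_P301487: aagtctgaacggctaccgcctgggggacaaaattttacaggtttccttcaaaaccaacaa
Tial1 A_51_P201567: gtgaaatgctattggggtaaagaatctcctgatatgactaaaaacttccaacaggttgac

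A window of the second Zfp36 probe is shown because it was the one member probe that held the nonamer TTATTTATT, the core of a classical AU-rich element, which is in capitals. The window lies at chr7:29161969-29161998 on the minus strand of mm9.
Zfp36 A_52_P80944, 30 bases: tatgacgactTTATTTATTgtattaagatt
The nonamer was in 0.239% of the 15497 coding probes above the filter described below, and its reverse complement in 0.0839%. The pentamer ATTTA, which every copy of the nonamer contains, was in 4 of the 25 member probes and in 7.38% of the coding probes above the filter. Its reverse complement was in 1 member probe and in 7.79%. The member count includes probes below the filter, and Zfp36 A_52_P80944 and Caprin1 A_52_P127459 among those with ATTTA did not pass it. The member and array shares thus cover unlike sets. The share among member probes is a description of these 60-base windows and does not describe the rest of each mRNA.

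Translation efficiency of a probe is given as log2 P/FM, in which its polysome signal is divided by its free plus monosome signal. Abundance is given as A, the average of its log2 P and log2 FM signals. Probes were kept when A was above 4.5 on both arrays. Of all coding probes 15497 passed, covering 10402 genes, and of the members 22 of 25 probes passed, with at least 1 probe for each gene. The 3 that did not pass were the second Zfp36 probe, a Tia1 probe for AK009502 and a Caprin1 probe for NM_001111291. The median log2 P/FM of all coding probes was 0.28 in control and -0.25 in stressed cells, the median change was -0.62, and A changed by a median of 0.40. The P signal had a median stress over control fold of 1.06 and the FM signal of 1.62. All 8 fibroblast markers examined were above the filter, and of 6 markers of epithelial, blood and endothelial cells only Cd68 was, at A of 5.60 in control cells.

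The nearest measures of error were technical. The change in log2 P/FM had a median standard deviation (SD) of 0.10 between repeated spots over 108 probes, and between probes of one gene it was 0.36 over 3941 genes. The scanner software's own error of the change ran from 0.29 to 0.54 over the 22 member probes, with a median of 0.34. The change exceeded that error in all but 3 of them, and exceeded it by more than 2 times in 14. None of these measures covers the spread between cultures or labellings, and since 300 ng of RNA in all was labelled for each array, fewer cells and less RNA per cell cannot be told apart. P was in the Cy3 channel on both arrays, so dye and fraction cannot be told apart in any level of log2 P/FM. By the methods of the study, P and FM RNA were labelled in the proportions the gradients gave. There was more P than FM RNA in control cells and more FM than P RNA under stress.

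As a group the members had a higher median change in log2 P/FM than the array as a whole. The median log2 P/FM of the 22 probes was -0.02 in control cells, lower than that of all coding probes, and 0.23 in stressed cells, higher than that of all coding probes. Their median change was -0.01, and 16 of the 22 changes lay above the all-probe median. By gene, 8 of the 10 changes lay above the all-gene median of -0.69. Zfp36l2 enters this count and the 16 of 22 at -0.60, close to both medians. Its P signal under stress was not well above background, and its scanner error was 0.54. Among the 21 member probes with every signal well above background, 15 changes lay above the median of all such probes, -0.65. A was higher by a median of 0.45, close to that of all probes, and by 1 or more in 3 of the 22 probes (13.1% of all) and in 0 of the 10 genes (11.8%).

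**Figure D1:**
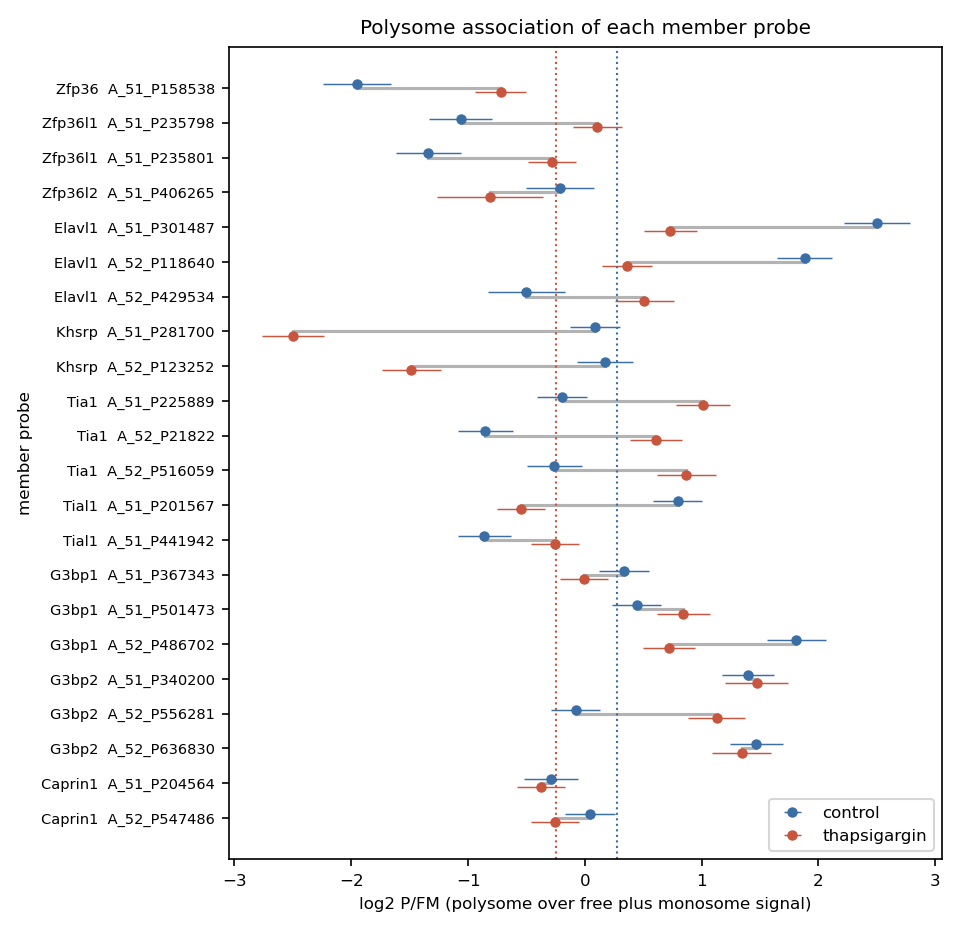
log2 P/FM of the 22 member probes above the filter on the control array (blue) and the thapsigargin array (red), with bars for the scanner software's error and dotted lines at the medians of all coding probes. Probes of Zfp36, Zfp36l1 and Tia1 lie to the right under stress in these unscaled values, those of Khsrp to the left, and those of Elavl1 and Tial1 lie in both directions.

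With the classes the study defined, 8 of 22 member probes were inducible, with log2 P/FM no higher than 0 without stress and a change of 1 or more, against 11.8% of all coding probes. They were the single Zfp36 probe above the filter, both Zfp36l1 probes, 3 Tia1 probes and 1 probe each of Elavl1 and G3bp2. All but Tia1 A_52_P21822, at 1.47 with a scanner error of 0.33, passed the cut of 1 by less than their scanner error. A total of 6 were sensitive, lower by 0.8 or more, against 44.5% of all. These were both Khsrp probes, 2 Elavl1 probes, and 1 probe each of Tial1 and G3bp1. The 2 resistant probes, at 0.8 or more on both arrays, were both of G3bp2 and overlap in sequence, against 3.45% of all. Averaged by gene, Zfp36, Zfp36l1 and Tia1 were inducible (9.93% of genes). Khsrp was sensitive (46.4%) and G3bp2 resistant (3.04%), and the other 5 were in none of these classes. Zfp36 and Tia1 changed by under 1 with normexp, a model-based background correction (0.44 and 0.94), and with no background subtraction (0.55 and 0.98). In both settings every member probe passed the filter, so these means also hold the dim Zfp36 and Tia1 probes left out above. The 8 inducible probes and 3 inducible genes were also all the members higher by 1 or more, against 13.3% of probes and 11.2% of genes. By any amount, log2 P/FM was higher in 11 of the 22 probes (33.2% of all) and in 4 of the 10 genes (30.4%), which were the inducible genes and G3bp2.

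The fractions differed in opposite directions in 12 of the 22 probes, near the share of 52.6% over all coding probes. The P signal was higher and the FM signal lower in 7 of the 22 probes, against 11.0% of all coding probes, and these were probes of Zfp36, Zfp36l1, Tia1 and G3bp2. The P signal was lower and the FM signal higher in 5, against 41.6% of all, and these were probes of Khsrp, Elavl1 and G3bp1. Both signals were higher in 9 and both lower in 1, the Zfp36l2 probe, against 42.3% and 5.16% of all.

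**Figure D2:**
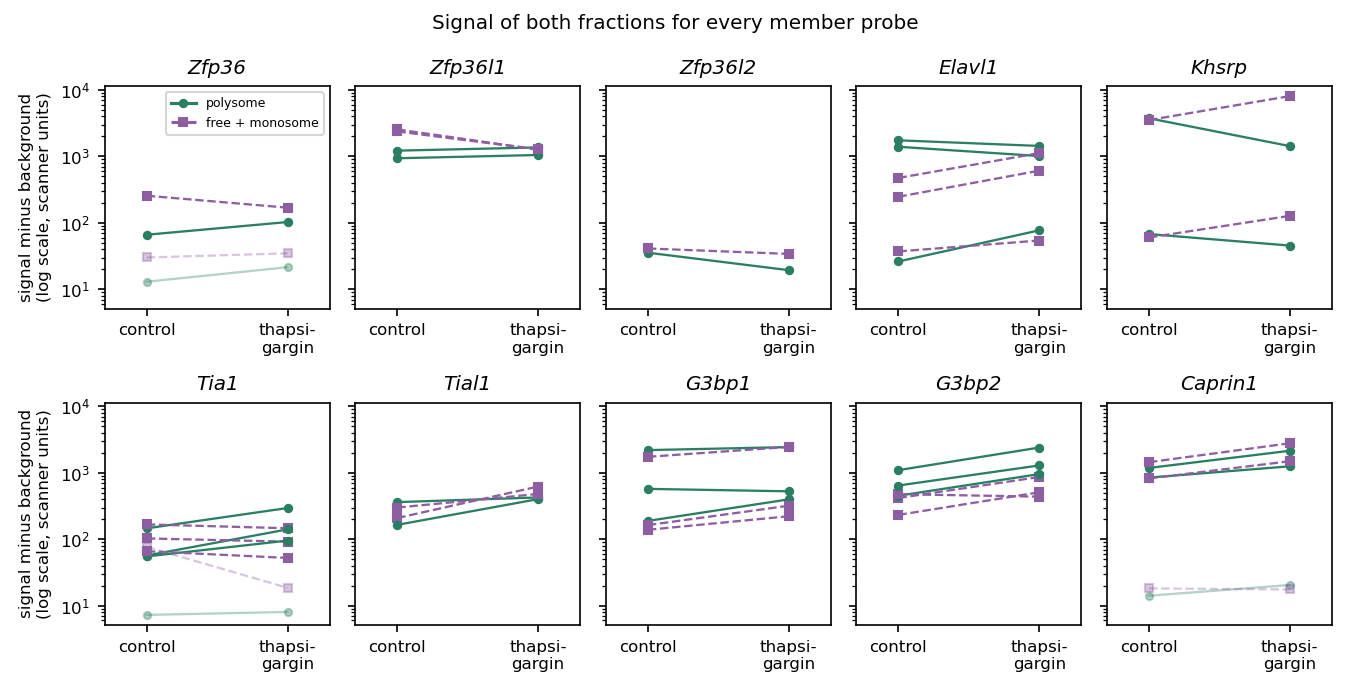
Background-subtracted signal of the polysome fraction (green circles, solid) and of the free plus monosome fraction (purple squares, dashed) for every member probe in both conditions, on a log axis in scanner units, with the 3 probes below the filter drawn pale. The fractions cross for Tia1, approach each other for Zfp36, and separate for Khsrp.

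Among the destabilising proteins, Zfp36 (tristetraprolin) had the lowest log2 P/FM of the 10 genes in control cells. Its probe A_51_P158538 had signals of 66.1 in P and 255 in FM in control cells, and of 103 and 169 in stressed cells. log2 P/FM was thus -1.95 and -0.72, a change of 1.23 with a scanner error of 0.36, while A changed by 0.02. The gene's change was below the 1 that the inducible class asks for with normexp background correction (0.44), with no background subtraction (0.55), and at 0.88 with no filter on A and in the deposited ratios. Each of these means also held the second, dimmer Zfp36 probe, which the filter left out of the value of 1.23. On A_51_P158538 the control value lay at percentile 3.27 of all coding probes and the stress value at percentile 32.5. The mRNA thus stayed below the middle of the array under stress. The second probe, which holds the nonamer, had signals of 13.0 and 30.05 in control cells and of 21.5 and 34.7 in stressed cells. In control cells P was not well above background on this probe, and log2 P/FM was -1.21 and -0.69.

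Zfp36l1, a paralogue of Zfp36, was measured by 2 bright probes that lie 68 bases apart and gave close values. A_51_P235798 had signals of 1218.5 in P and 2546 in FM in control cells, and of 1363 and 1265 in stressed cells. A_51_P235801 had 936 and 2372 in control cells, and 1048 and 1271 in stressed cells. The P signal of both was higher by a fold of 1.12, and the FM signals under stress were 0.50 and 0.54 of those in control cells. In these unscaled signals the change thus lay mostly in FM. By gene, log2 P/FM was -1.20 ± 0.20 without and -0.09 ± 0.27 under stress (SD over 2 probes), a change of 1.12 ± 0.08 that became 2.27 with loess and 2.26 with the processed signals. A was lower by 0.42 and 0.37, against an all-probe median of 0.40 higher. Among all coding probes of similar A, where the median change was -1.40 and -1.29, these changes lay at percentiles 95.5 and 94.6.

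Zfp36l2, the third paralogue, was dim. Its probe had signals of 35.5 in P and 41.1 in FM in control cells, and of 19.4 and 34.0 in stressed cells, where the P signal was not well above background. log2 P/FM was -0.21 without and -0.81 under stress, and the change of -0.60, with a scanner error of 0.54, was close to the all-probe median and turned positive with normexp background correction (0.25) and with scaling to the array's 10 probes for spike-in control RNA (1.95). It was the member with the largest difference downwards in A, -0.57.

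Khsrp, a KH-domain protein that recruits decay enzymes to AU-rich elements, was the member with the largest change downwards. A_51_P281700 had signals of 3744 in P and 3521 in FM in control cells, and of 1427 and 8069 in stressed cells. The dimmer A_52_P123252 had 67.7 and 60.2 in control cells, and 45.4 and 127 in stressed cells. In both probes the fractions were about equal in control cells and FM exceeded P under stress. log2 P/FM of the gene was 0.13 ± 0.06 without and -1.99 ± 0.72 under stress (SD over 2 probes), a change of -2.12 ± 0.66, with 11.1% of all genes lower. A differed by 0.08. Scaling to the spike-in probes turned the change to 0.43, whereas it stayed negative in the 12 other settings tried, at -2.59 to -1.35.

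Elavl1 (HuR), which stabilises AU-rich mRNAs, had its highest and lowest values on different probes. A_51_P301487 had signals of 1394 in P and 247 in FM in control cells, and of 1011 and 609 in stressed cells. Its log2 P/FM was 2.50 in control cells, at percentile 99.3 of all coding probes, and 0.73 in stressed cells, a change of -1.77. A_52_P118640 had 1744 and 473 in control cells, and 1435 and 1119 in stressed cells, and its log2 P/FM went from 1.88 to 0.36, a change of -1.52. In both, the P signal exceeded the FM signal on both arrays. The third probe, A_52_P429534, was dimmer, at 26.2 and 37.1 in control cells and 76.9 and 54.1 in stressed cells. Its log2 P/FM went from -0.50 to 0.51, a change of 1.01. Averaged over the 3 probes the change was -0.76 ± 1.54 (SD), and without the dim probe, as with A above 5.5, it was -1.65. The mean over the 3 probes turned to 1.79 with scaling to the spike-in probes and was -0.16 with loess.

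Tia1, a nucleator of stress granules and translational repressor, had a change upwards close to those of Zfp36 and Zfp36l1, and its 3 probes above the filter gave close values. Which of these 3 genes changed most differed between settings. A_51_P225889 had signals of 146 in P and 167 in FM in control cells, and of 296 and 147 in stressed cells. A_52_P21822 had 57.0 and 103 in control cells, and 141 and 92.3 in stressed cells. A_52_P516059 had 55.2 and 66.2 in control cells, and 95.6 and 52.4 in stressed cells. On every one of these probes FM exceeded P in control cells and P exceeded FM under stress. The P signal was 1.73 to 2.47 times that of control cells and the FM signal 0.79 to 0.90 times. By gene, log2 P/FM was -0.44 ± 0.36 without and 0.83 ± 0.20 under stress (SD over 3 probes), a change of 1.27 ± 0.18 that exceeded 92.1% of all genes. The probe for AK009502, 9042 genomic bases upstream of the next one, was well above background only in FM of control cells and is not counted.

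Tial1, the close relative of Tia1, had probes that moved in opposite directions. A_51_P201567 had signals of 363 in P and 209 in FM in control cells, and of 426 and 622 in stressed cells. Its log2 P/FM was 0.80 and -0.55, a change of -1.34 with a scanner error of 0.30. A_51_P441942 had 165 and 300 in control cells, and 403 and 481 in stressed cells. Its log2 P/FM was -0.86 and -0.26, a change of 0.60 with a scanner error of 0.31. The mean change of -0.37 ± 1.38 (SD over 2 probes) therefore describes neither probe, and it turned positive with 5 of 13 other settings. A was higher on both probes, by 0.90 and 0.98.

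G3bp1 and G3bp2 are paralogous proteins on which the assembly of stress granules depends. G3bp2 stood out by its level under stress. A_51_P340200 had signals of 1099 in P and 418 in FM in control cells, and of 2403 and 866 in stressed cells. A_52_P636830, which shares 34 bases with it and is not independent, had 645 and 233 in control cells, and 1294 and 510 in stressed cells. Both fractions were brighter under stress on these probes, by folds of 2.01 to 2.19, and log2 P/FM stayed within the scanner error, at 1.40 and 1.47 on the first and at 1.47 and 1.34 on the second. A was higher by 1.09 and 1.07. The third probe, A_52_P556281 for NM_001080795, had 453 and 478 in control cells, and 958 and 438 in stressed cells, so that P was higher and FM was not, and log2 P/FM went from -0.08 to 1.13. By gene, log2 P/FM was 0.93 ± 0.87 without and 1.31 ± 0.17 under stress (SD over 3 probes). The overlapping probes enter these means as separate values. The gene's resistant call rests on them, as the third probe was at -0.08 in control cells, below the 0.8 that this class asks for. The gene's change of 0.39 ± 0.72 became 1.24 with loess and 1.12 with the processed signals. The stress value lay at percentile 96.5 of all genes and was the highest of the 10 members.

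G3bp1 had 3 probes with 3 different changes. A_52_P486702 had signals of 574 in P and 164 in FM in control cells, and of 527 and 320 in stressed cells, and its log2 P/FM went from 1.81 to 0.72. A_51_P367343 had 2201 and 1744 in control cells, and 2442 and 2454 in stressed cells, and its log2 P/FM went from 0.34 to -0.01. A_51_P501473, for AK083741, had 189 and 139 in control cells, and 399 and 222 in stressed cells, and its log2 P/FM went from 0.44 to 0.84. The changes were -1.09, -0.34 and 0.40, with scanner errors of 0.33, 0.30 and 0.31. The gene's mean change of -0.34 ± 0.74 (SD over 3 probes) was above the all-gene median and turned positive with 6 of 13 other settings. On the 3 probes A was higher by 0.42, 0.32 and 0.88.

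Caprin1, a partner of both G3bp proteins in stress granules, changed in signal and little in the unscaled ratio. A_51_P204564 had signals of 1186 in P and 1448 in FM in control cells, and of 2151 and 2789 in stressed cells. A_52_P547486 had 849 and 823 in control cells, and 1255 and 1496 in stressed cells. Both fractions were brighter under stress, by folds of 1.48 to 1.93. log2 P/FM by gene was -0.12 ± 0.23 without and -0.31 ± 0.09 under stress (SD over 2 probes), a change of -0.19 ± 0.15 that turned positive with 7 of 13 other settings. It was 0.98 with loess, 1.56 with the processed signals and 2.36 with scaling to the spike-in probes. Among all genes the unscaled change lay at percentile 64.5.

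In order of log2 P/FM in control cells the genes ran from Elavl1, G3bp2 and G3bp1 through Khsrp, Tial1, Caprin1, Zfp36l2 and Tia1 to Zfp36l1 and Zfp36. Under stress the order was G3bp2, Tia1, Elavl1, G3bp1, Zfp36l1, Caprin1, Tial1, Zfp36, Zfp36l2 and Khsrp. Elavl1, G3bp2 and G3bp1 did not differ in control cells beyond their spread over probes, nor did Elavl1 and G3bp1 under stress. Khsrp was above Tia1 in control cells and last under stress, where Tia1 was exceeded only by G3bp2.

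The disagreement between probes of a gene was examined along the gene, a comparison made after the values had been seen. Positions of the probes on mm9 were taken in the direction of transcription, introns included, and the furthest downstream probe above the filter was compared with the furthest upstream one for genes with 1000 to 20000 bases between them. This left 6 members, and in 4 of them the change at the downstream probe was higher by 1 or more, against 27.8% of the 2242 genes in this range. The difference was 2.78 in Elavl1 over 4099 bases, 1.95 in Tial1 over 4483 bases, 1.49 in G3bp1 over 6058 bases and 1.13 in G3bp2 over 3084 bases. It was 0.26 in Tia1 over 1090 bases and -0.93 in Khsrp over 5294 bases. In G3bp1 and G3bp2 the upstream and downstream probes are annotated to different transcripts. The part of transcript form in any of these differences was not tested.

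In Elavl1, Tial1, G3bp1 and G3bp2 the difference lay mostly in the control array. In control cells log2 P/FM of the downstream probe differed from that of the upstream probe by -3.00 in Elavl1, -1.66 in Tial1, -1.47 in G3bp2 and -1.37 in G3bp1. In stressed cells these differences were -0.22, 0.29, -0.34 and 0.12. The SD of log2 P/FM over the probes of Elavl1 was accordingly 1.59 in control and 0.19 in stressed cells, and that of Tial1 1.17 and 0.20. In Tia1 the downstream probe differed by -0.66 in control and -0.40 under stress, and in Khsrp by -0.08 and -1.01. A higher change at the downstream probe was common on the array. Over the 2242 genes the median difference in change was 0.42, and in 70.1% the downstream probe was the higher. Over these genes the median difference in log2 P/FM was -0.27 in control and 0.16 under stress, so it was not confined to the control array. The downstream probe of Elavl1 was also the dimmer, at a mean A of 5.49 against 9.41, and the part of brightness in that gene's difference was not tested. Over the 669 genes whose probes lay within 1 of each other in mean A the median difference in change was 0.54 and the share 76.8%. Their median difference in log2 P/FM was -0.25 in control and 0.24 under stress. In Tial1, G3bp1 and G3bp2 the mean A of both probes lay within 1 too. The differences of these 4 genes were positive in every other setting that kept both probes, at 1.78 to 2.88 in Elavl1, 1.16 to 1.95 in Tial1, 1.03 to 1.49 in G3bp1 and 0.76 to 1.15 in G3bp2. Centring, scaling to the spike-in probes and the filters cannot move a difference between probes of the same arrays. Only the settings for background, spot signal and intensity-dependent normalization bear on it.

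**Figure D3:**
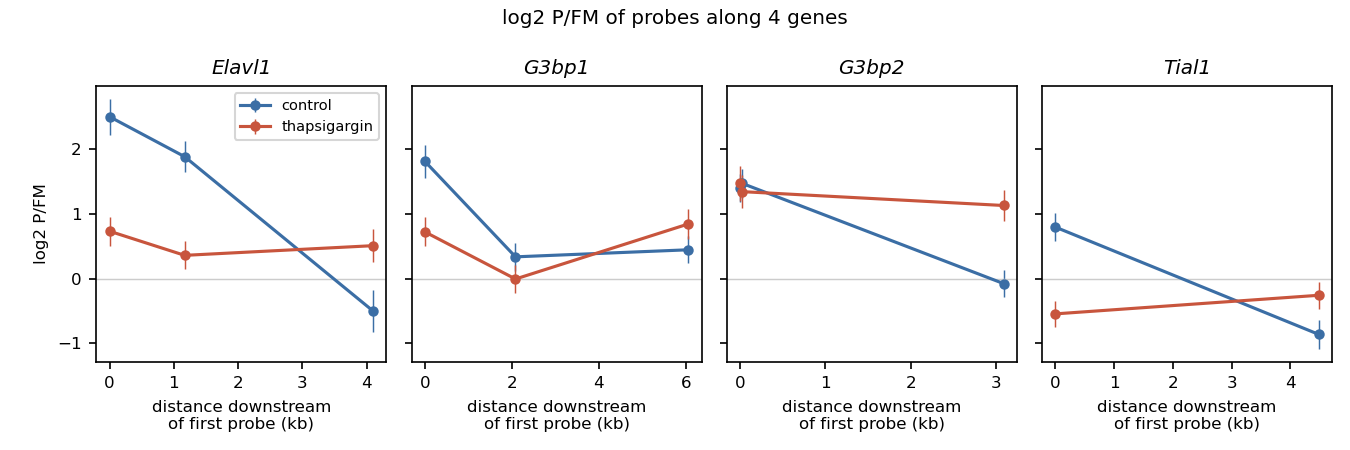
log2 P/FM of the probes above the filter of Elavl1, G3bp1, G3bp2 and Tial1 against their genomic distance in kilobases downstream of the first probe, in control (blue) and thapsigargin-treated cells (red), with bars for the scanner software's error. The control values are lower at the last probe than at the first in each gene, by 1.37 to 3.00, while the values under stress differ between these probes by -0.34 to 0.29. In G3bp1 and G3bp2 the first and last probes are annotated to different transcripts.

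The change depended on brightness over the whole array, with brighter probes lower on average. Set against probes of similar A, defined as within 0.5, the inducible probes of the members still lay high, from percentile 81.1 for the dim Elavl1 probe to 95.5 for A_51_P235798 of Zfp36l1. Both Caprin1 probes lay at percentiles 84.6 and 75.0, where the medians of similar probes were -1.45 and -1.19, and A_51_P367343 of G3bp1 at 81.9. The sensitive probes of Khsrp lay at 14.7 and 8.03. The sensitive probes of Elavl1, Tial1 and G3bp1 lay between 23.8 and 38.8, nearer to the middle of their neighbours.

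**Figure D4:**
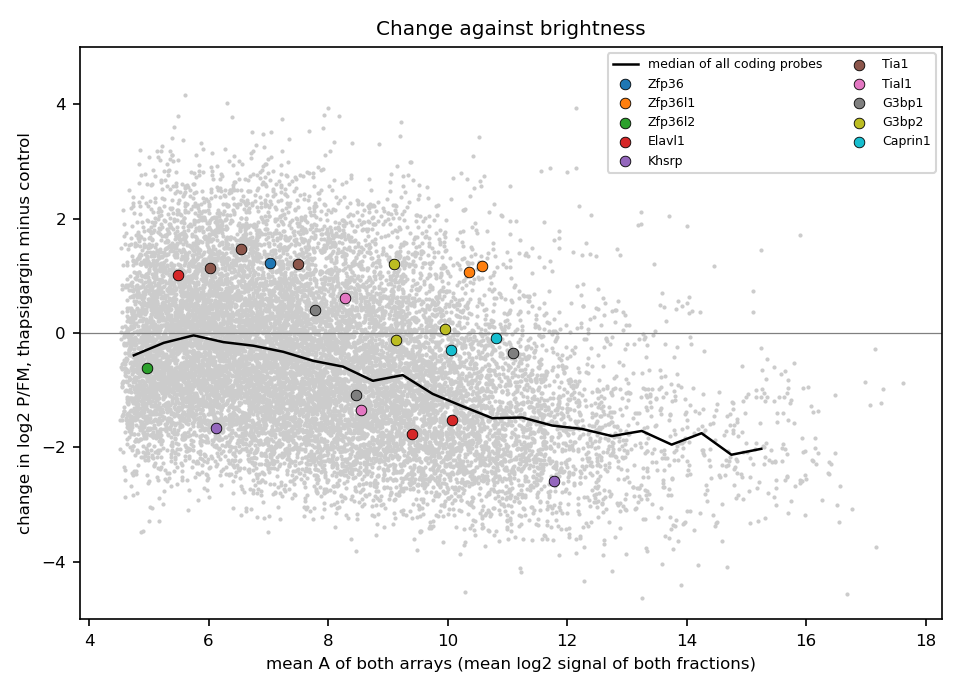
Change in log2 P/FM (thapsigargin minus control) against the mean A of both arrays for all 15497 coding probes above the filter (grey), their running median (line) and the member probes (coloured by gene). The line declines towards bright probes, and 16 of the 22 member probes lie above the all-probe median of -0.62.

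Other genes of the same machinery were taken as gene lists, whose class counts stand against 9.93% inducible, 46.4% sensitive and 3.04% resistant among all genes. Of 27 other stress granule proteins 25 were above the filter, with a median change of -0.30, 6 inducible (24.0%), 7 sensitive (28.0%) and 0 resistant genes. By probe, the largest differences upwards were in Nufip2 (2.84, from -2.25 to 0.59), Larp4 (2.54) and Tardbp (2.16), although the other probes of Larp4 and Tardbp reached down to 0.03 and -0.43. The largest differences downwards were in Serbp1 (-2.86), the cold-induced Cirbp (-2.06) and Rbm3 (-1.83). Of 22 other AU-rich element binders 19 were measured, with a median of -0.45, 3 inducible (15.8%), 6 sensitive (31.6%) and 1 resistant (5.26%). The values were highest in Rc3h1 (2.91, with the other probe at 1.07), Rc3h2 (1.81) and Elavl2 (1.78), a relative of Elavl1. These were the 3 inducible genes of the list. Rc3h1 and Rc3h2 are the Roquin proteins, counted in this list although they promote decay of mRNAs with stem-loop elements. The values were lowest in Pcbp2 (-2.55), Hnrnpa0 (-2.23) and Pcbp1 (-1.97). For comparison, 10 of the 10 members had a median of -0.27, and all genes one of -0.69.

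The decay machinery that the Zfp36 proteins and Khsrp recruit held 37 measured genes of 39, with a median change of -0.33, 5 inducible (13.5%, against 9.93% of all genes), 15 sensitive (40.5%, against 46.4%) and 2 resistant (5.41%, against 3.04%). Cnot1, the scaffold of the CCR4-NOT deadenylase, changed by 2.51, its partner Btg2 by 2.49 and the catalytic subunit Cnot6l by 1.75. The exosome subunits Exosc5, Exosc2 and Exosc4 changed by -3.18, -2.61 and -2.54, with the other Exosc4 probe at -0.20. Of 34 mRNAs known for AU-rich elements 24 were measured, with a median of 0.37, 8 inducible (33.3%), 3 sensitive (12.5%) and 0 resistant. Ptgs2, the inducible cyclooxygenase, changed by 3.69, from -2.18 to 1.51, with A higher by 2.17. Ier3 and Plk2 changed by 2.56 and 2.30, and at the other end were Hmgb1 (-1.97, with another probe at 0.34 and a gene mean of -0.82), Actb (-1.75) and Ccl7 (-0.91).

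**Figure D5:**
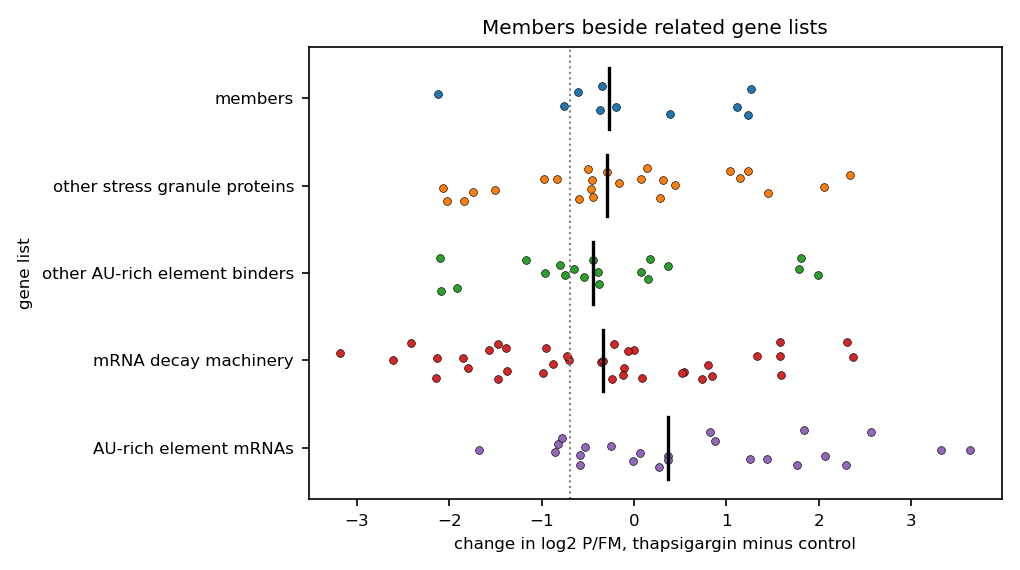
Change in log2 P/FM (thapsigargin minus control) of each gene above the filter in the 10 members and the 4 related lists, 1 point per gene as the mean over its probes, with a bar at each list's median and a dotted line at the median of all genes. The medians run from -0.45 in the other AU-rich element binders to 0.37 in the AU-rich element mRNAs, and every list spans both directions.

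Tia1 had the largest change upwards with the background correction and filter of the study, though not in every other setting. The mRNAs whose values were nearest to those of Tia1, by Euclidean distance over log2 P/FM and A on both arrays among 7610 coding accessions, were Nemp1 (0.17), Ccdc77 (0.19) and Dixdc1 (0.27). Nearest to Khsrp among 5504 accessions were Coprs (0.15), Det1 (0.27) and Trabd (0.32). Nemp1 went from -0.52 to 0.97 in log2 P/FM and Coprs from 0.07 to -2.05. The likeness covers 4 values on 2 arrays and no other condition.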

How the data were processed

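Two-colour arrays of NIH3T3 cells were analysed, 1 per condition, grouped by their labels. Per the file headers, Feature Extraction 10.7.1.1 gave the intensity of each spot and of its local background, without normalization. Also deposited were processed intensity values (background-subtracted, detrended and dye-normalized), a log10 ratio of Cy5 to Cy3 with its error score, and flags of 0 or 1 for spots well above background, saturated or outlying. The authors further deposited log2 ratios of Cy3 to Cy5 for 11483 accessions, of which 99.99% on the control array matched the means computed here within 0.001.

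From each mean spot signal the median background around it was taken away, differences under 0.5 were set to 0.5 (limma 3.58.1 in R 4.3.3), and nothing was normalized, as in the methods of the study. Outlier spots (295, 0.680%) were left out. Python 3.11.15 with pandas 2.3.3 was used for the rest. Coding probes had an NM accession or the current symbol of a protein-coding gene in a RefSeq table of GRCm38.p6, used for names only. Genes are means over probes above the filter. Probe sequences and mm9 positions are those of the deposited files. Exon and untranslated region annotation of the probes was not used here. Where a fraction was not well above background, its value is the measured signal minus background, which is uncertain there.

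All 10 members and every probe were described. From each related list the 3 largest changes upwards and downwards were named among probes with every signal well above background, and for the members with the largest change in each direction the 3 nearest coding accessions. The members and lists were chosen with earlier results of these data known, and the comparisons of probe position, probe identity and motifs were added after the values were seen. Alternatives covered the background correction, the spot signal, the normalization, the filter, the unit and the deposited log2 ratios. The calls were tested on simulated data. No test between conditions was possible with 1 array each, so precision is limited by the array number.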

Additional observations from a re-analysis of the deposited data

How the results depend on the processing

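No paired analysis was possible because each condition had 1 array. The changes of Zfp36, Zfp36l1, Tia1 and G3bp2 stayed positive in the 13 other settings that gave them a value, at 0.44 to 3.78, 1.04 to 3.67, 0.94 to 3.82 and 0.39 to 2.94. Centring and scaling to the spike-in probes raised the change of every gene, so with them these changes could only stay positive. The filters only choose which probes enter a gene's mean. The member median minus the all-probe median was positive in all 15 other settings, from 0.13 with normexp to 1.19 with the processed signals. Centring and scaling to the spike-in probes shift all probes alike, so with them it could only stay at 0.62. The median change of all probes itself was -0.62, and became 0.37 with normexp, -0.21 with the processed signals, -0.09 with loess, -0.10 with centring and 1.93 with the spike-in probes. All 30748 coding probes passed the filter with normexp and with no background subtraction, and 19429 with the processed signals, so these settings also added dim probes. Loess, centring and the processed signals adjust each array's ratios. They can thus take out the difference in labelled P and FM RNA between conditions. The direction of Khsrp, Elavl1, Zfp36l2, Tial1, G3bp1 and Caprin1 depended on the processing. In Khsrp and Elavl1 it turned only with scaling to the spike-in probes, which raised all genes. The causes of the following differences were not tested.

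With normexp (offset 50) the member medians were -0.42 in control cells, 0.50 for the change and -0.28 for the change in A, with 3 sensitive, 4 inducible and 1 resistant probes, and Zfp36l2 was at 0.25 and G3bp1 at 0.15. With no background subtraction 5 probes were inducible. With the processed signals the medians were -0.37 in control and 0.62 in stressed cells, 0.99 for the change and 0.0605 for the change in A, with 4 resistant probes, and Tial1 was at 0.11, G3bp1 at 0.41 and Caprin1 at 1.56. With the log ratio of Feature Extraction the medians were 0.62 under stress and 0.98 for the change, with 4 resistant probes, and the same genes were at 0.11, 0.41 and 1.00. With loess the medians were 0.62 under stress and 0.93 for the change, with 3 sensitive probes, and the 3 genes were at 0.18, 0.42 and 0.98. With centring the medians were 0.52 for the change and -0.0558 for the change in A, with 4 resistant probes, and the 3 genes were at 0.16, 0.18 and 0.33. With scaling to the spike-in probes the medians were 2.78 under stress, 2.55 for the change and 0.71 for the change in A, with 0 sensitive and 5 resistant probes. Zfp36l2 was then at 1.95, Elavl1 at 1.79, Khsrp at 0.43, Tial1 at 2.18, G3bp1 at 2.21 and Caprin1 at 2.36.

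With A above 7, 5 probes were inducible, and with no filter the median change was 0.40. Over 14 accessions the median under stress was -0.0730, with 1 sensitive, 4 inducible and 1 resistant. Over 10 genes it was -0.20, with 1, 3 and 1, and over 11 accessions of the deposited log2 ratios -0.28, with 1, 3 and 1. These 3 settings hold fewer units. The downstream minus upstream difference, tried in these settings after seeing the data, turned in Khsrp to 0.83 with the processed signals and with the log ratio and to 0.40 with loess, and in Tia1 to -0.18 with normexp. Dim probes limit Zfp36l2, the second Zfp36 probe and the third Elavl1 probe.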
